A study of Homo sapiens with 6 samples.

Results

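ACAT2, the cytosolic acetoacetyl-CoA thiolase, was examined together with 8 genes whose enzymes carry out the same or neighbouring reactions: ACAT1, ACAA1, ACAA2, HADHA, HADHB, SCP2, OXCT1 and BDH1. The 9 genes were picked by name, for their reactions, and all 9 were found among the 58735 genes of the deposited table. HGC-27 is an established line of undifferentiated human gastric carcinoma. Its cells received the vector pSIH-H1-Puro for 24 h, either as negative control (shNC) or with a short hairpin RNA that targets ACAT2 (shACAT2). The paper describes its negative controls as empty vectors and lists no control hairpin. After 7 days of puromycin, 3 RNA libraries of each group were sequenced. Both groups are labelled wild type (WT), were cultured alike in the same RPMI medium with fetal bovine serum and carried the same vector backbone and selection. The knockdown cells were thus a selected population with residual ACAT2, and the labels do not name which hairpin was sequenced. The series design calls the libraries biological replicates, but does not say whether they came from separate cultures, so p-values measure the spread between these libraries.

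Thiolases either condense 2 acyl-CoA molecules or cleave a 3-ketoacyl-CoA with free CoA. In the cytosol ACAT2 joins acetyl-CoA into acetoacetyl-CoA, the precursor that HMG-CoA synthase feeds into the mevalonate and cholesterol pathway. In mitochondria ACAT1 acts on the same compound, during ketone body use, ketone body formation and isoleucine breakdown. Fatty acid oxidation ends each cycle with a thiolase of broader chain length: ACAA2 and HADHB (the beta subunit of the trifunctional protein) in mitochondria, ACAA1 and the long SCP2 isoform in peroxisomes. HADHA is the alpha subunit of the trifunctional protein and carries its hydratase and dehydrogenase, not its thiolase. OXCT1 transfers CoA to acetoacetate, the committed step of ketone body use, and BDH1 interconverts beta-hydroxybutyrate and acetoacetate.

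On GRCh38 the ACAT2 gene (ENSG00000120437) lies on chromosome 6, plus strand, from 159760328 to 159779055. A primer pair was used for quantitative PCR of ACAT2 mRNA. It is shown because it marks a stretch that only ACAT2 among the 9 genes holds. The forward primer lies in the coding part of exon 2 at chr6:159762929-159762950 and the reverse primer in that of exon 3 at chr6:159767011-159767033, on the minus strand, and they enclose 154 bases of the principal ACAT2 transcript. No annotated transcript of the other 8 genes holds either site, as written 5′ to 3′ here in lower case throughout.
ACAT2 forward primer: tggtgccttagctgctgttcct
ACAT2 reverse primer: ggcttgtctaacaggattctgcc
The longest stretch that ACAT2 shares with an ACAT1 transcript is 13 bases, and it shares at most 30 with any of the other 8 genes. The gene overlaps its neighbours instead: 2247 of its exon bases, 52.3% of 4299, are also exons of other genes, on the opposite strand. They belong to TCP1 (397 bases), SOD2 (1141 bases) and SOD2-OT1 (1458 bases), and whether the counting used strand is not given in the sources used here. Without strand, reads from these bases cannot be assigned to ACAT2 or to its partner.

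HADHA and HADHB stand head to head on chromosome 2, HADHA from 26190635 to 26244726 on the minus strand and HADHB from 26243170 to 26290468 on the plus strand. In RefSeq (GRCh38.p14) their start sites are 307 bases apart, and 194 bases belong to the promoter windows of both genes (250 bases before to 50 after each start). This stretch, chr2:26244689-26244882 on the plus strand, is shown because it lies between the 2 RefSeq start sites. From these sites the subunits are transcribed in opposite directions. The gene coordinates given first, which equal GENCODE release 29, differ: there the 2 genes overlap and the stretch lies within HADHB. Capitals mark its GC box (the letters GGGCGG on either strand).
HADHA and HADHB shared promoter: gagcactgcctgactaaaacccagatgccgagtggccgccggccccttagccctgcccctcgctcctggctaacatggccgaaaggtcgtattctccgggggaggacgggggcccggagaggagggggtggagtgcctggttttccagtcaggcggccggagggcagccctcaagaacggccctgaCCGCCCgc
The HADHA window holds 1 GC box and the HADHB window 2. A GC box is found in 45.0% of 35116 RefSeq promoter windows of this length. Neither the HADHA nor the HADHB window holds the letters CCAAT (34.6% of windows) or TATAAA (11.5% of windows) on either strand. These matches are descriptions of letters, not of bound sites. Of the 9 genes, 7 have a promoter entry in RefSeq's table, and ACAT2 and ACAA1 do not. SCP2 has 2 entries on chromosome 1 with start sites 87661 bases apart, 52927276 and 53014937. The first is known to give the long isoform with the thiolase, and the second the short sterol carrier protein without it. The deposited SCP2 value covers both, so its thiolase part is not known.

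Expression was deposited as FPKM, fragments per kilobase of summed exon length scaled for library size, so levels can be compared between genes within the limits of that length. The values could be read back as whole fragments, of which 14086416 to 16067486 per library lay on genes. Groups were compared on the scale log2(FPKM + 1) by limma for the 13832 genes that reached a mean of 1 FPKM in either group, with Benjamini-Hochberg adjustment over all of them. A gene was called when its adjusted p was below 0.05. The added 1 FPKM shrinks the fold change of genes with low levels. Where 3 values are given for a group, they stand in the order of the replicate numbers. Libraries shNC-2 and shNC-3 were closer to each other than any other pair within a group (chi-square per gene 1.71, against 10.8 to 39.3), still above sampling noise. Library shACAT2-3 held fragments on 7477 genes that were at 0 in all other libraries, against 416 to 657 such genes for each of the others. Of 5 epithelial markers, only CDH1 reached 1 FPKM in any library, their summed FPKM was 0.505 to 0.830 in shNC and 1.44 to 2.22 in shACAT2 cells, and KRT18 and KRT19 were at 0 in all shNC libraries. None of 5 gastric mucosa markers reached 1 FPKM, and TFF1 and GKN1 were at 0 everywhere, so genes of the gastric mucosa did not mark these cells. None of 3 hepatocyte, 4 blood cell or 3 endothelial markers reached 1 FPKM either. All 3 fibroblast markers did, and their summed FPKM was 98.9 to 103 in shNC and 175 to 195 in shACAT2 libraries. COL1A1 (61.0 ± 5.22 against 121 ± 16.0, SD), DCN and LUM were each called higher, with limma adjusted p = 0.0136, 0.0246 and 0.0423. The part of these markers in the results that follow was not tested.

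ACAT2 mRNA was lower in every knockdown library. The 3 controls had 14.2, 11.7 and 12.7 FPKM and the 3 knockdown libraries 6.19, 5.46 and 6.05 FPKM, on 390 to 944 fragments. The lowest control lay well above the highest knockdown library. The group means were 12.9 ± 1.25 and 5.90 ± 0.388 (SD, n = 3), so that 0.457 of the control level remained. On the log2 scale ACAT2 fell by 1.01 (SE 0.10, 95% interval −1.25 to −0.76, limma adjusted p = 0.0059). Of all genes tested, 1.81% were called lower, ACAT2 among them. In bulk RNA, less ACAT2 in every cell and fewer cells with full ACAT2 cannot be told apart. The call was lost without shNC-3, where the log2 fold change was −1.01 but the limma adjusted p was 0.0512. In that fit 63 genes were called over all genes tested, against 706 with all libraries.

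The genes beside ACAT2 were not lower with it. None of the 4 neighbours tested was called by limma, against 5.1% of all genes tested (1, TCP1, had an unadjusted p under 0.05). TCP1, a subunit of the cytosolic chaperonin and the neighbour whose exons overlap those of ACAT2 tail to tail, had 69.6, 66.8 and 68.1 FPKM in shNC and 93.9, 85.9 and 85.6 FPKM in shACAT2 libraries. These groups did not overlap, and the log2 fold change was 0.37 (SE 0.10, limma adjusted p = 0.0821). When the replicate number was added as a block, a pairing that the labels do not give, TCP1 was called (limma adjusted p = 0.0381). SOD2, the mitochondrial superoxide dismutase, was at 2.54 ± 0.144 and 2.77 ± 0.0924 FPKM (SD, n = 3; limma adjusted p = 0.578), while the second identifier of that symbol (ENSG00000285441), whose exons are those that overlap ACAT2, was under the filter. MRPL18, a mitochondrial ribosomal protein, had a log2 fold change of 0.20 and WTAP, of the RNA m6A methyltransferase complex, of −0.01 (limma adjusted p = 0.57 and 0.97). PNLDC1 was under the filter.

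None of the other members had a change that passed the test. BDH1 lay under the filter, and the other 7 had log2 fold changes between 0.02 and 0.40, with a median of 0.15 against 0.02 over all genes tested. None of the 7 was called, where 5.1% of all genes were called and 3.3% were called higher. For so few genes, none called is near that share and does not show that they were unchanged. At an unadjusted limma p under 0.05 there were 2, HADHB and SCP2. These are also the 2 whose groups did not overlap, 28.6% of the 7, near the 30.7% of all genes tested whose groups did not overlap.

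**Figure D1:**
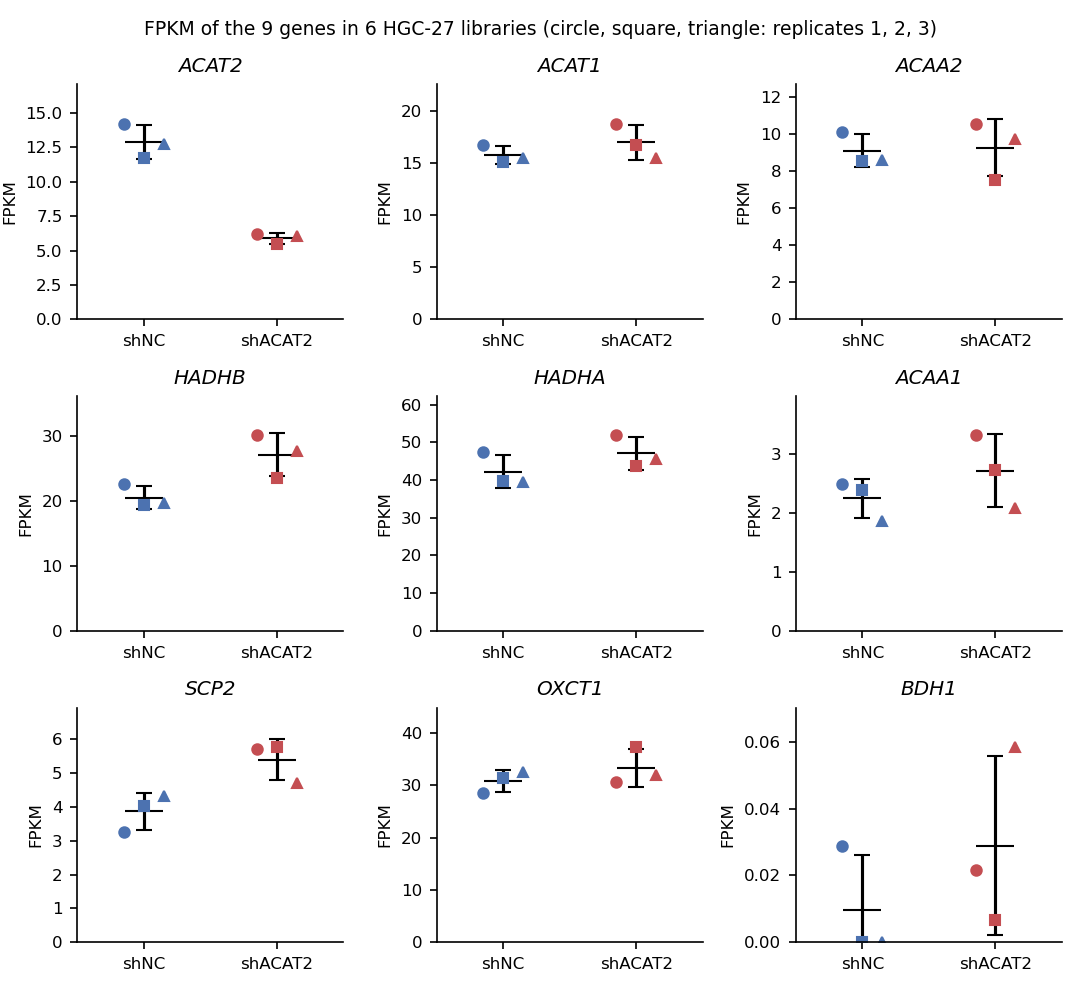
FPKM of each of the 9 genes (vertical axes, each from 0) in the shNC (blue) and shACAT2 (red) libraries, with the mean and SD of 3 libraries as black bars. ACAT2 separates downward, HADHB and SCP2 separate upward without passing the adjusted test, the groups of the other genes overlap, and BDH1 stays under 0.06 FPKM.

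ACAT1, the mitochondrial acetoacetyl-CoA thiolase and the closest functional counterpart of ACAT2 (chromosome 11, 108121516 to 108147776), stayed within the spread of its replicates. Its FPKM was 16.7, 15.1 and 15.5 in shNC and 18.8, 16.7 and 15.5 in shACAT2 libraries. Only shACAT2-1 lay above all the controls by more than a trace. This gave a log2 fold change of 0.10 (SE 0.11, 95% interval −0.15 to 0.35, limma adjusted p = 0.622). The log2 ratio of ACAT1 to ACAT2 went from 0.24, 0.36 and 0.28 to 1.60, 1.62 and 1.36. The ratio differed by 1.23 on the log2 scale with no overlap (exact two-sided permutation test, p = 0.1, below which 3 libraries against 3 cannot go). Together the 2 acetoacetyl-CoA thiolases summed to 28.7 ± 2.10 FPKM in shNC and 22.9 ± 1.84 FPKM in shACAT2 libraries (SD, n = 3), with ACAT2 holding 45.0% ± 1.09 and 25.8% ± 1.98 of that sum. The level of this share, like that of the ratio, depends on summed exon length. That length is 5584 bases for ACAT1, whose principal transcript has 1761, against 4299 and 3180 for ACAT2. Per principal transcript ACAT2 would hold a smaller part of the pair.

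HADHB had the largest difference in FPKM among the 5 thiolases other than ACAT2, although it did not pass the adjusted test. It had 22.6, 19.3 and 19.6 FPKM in shNC and 30.1, 23.6 and 27.7 FPKM in shACAT2 libraries, on 1342 to 1958 fragments. Every knockdown library was above every control, the nearest being shACAT2-2 and shNC-1. The means were 20.5 ± 1.81 and 27.1 ± 3.30 FPKM (SD, n = 3), a log2 fold change of 0.38 (SE 0.13, 95% interval 0.09 to 0.68, limma adjusted p = 0.130). With the replicate number as a block the limma adjusted p was 0.0414, which makes HADHB the 1 other member called in that fit.

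HADHA, the partner subunit that starts at the other end of the promoter stretch shown above, had overlapping groups. It had 47.4, 39.8 and 39.5 FPKM in shNC and 51.9, 43.7 and 45.5 FPKM in shACAT2 libraries, and shNC-1 lay above 2 of the knockdown libraries. For HADHA the log2 fold change was 0.15 (SE 0.12, 95% interval −0.14 to 0.44, limma adjusted p = 0.504). HADHA stood at 2.06 times HADHB in controls, with log2 ratios of 1.07, 1.04 and 1.01. In the knockdown libraries these ratios were 0.78, 0.89 and 0.72, lower by 0.24 without overlap (exact two-sided permutation test, p = 0.1, the smallest possible). Processed pseudogenes share 50-base stretches with both subunits, but HADHAP1 and HADHAP2 reached at most 0.584 and 0.114 FPKM and the HADHB copy AC112656.1 was at 0 in every library.

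ACAA2, the mitochondrial medium-chain thiolase (chromosome 18, 49782167 to 49813960), did not separate the groups. Its FPKM was 10.1, 8.54 and 8.59 in shNC and 10.5, 7.53 and 9.70 in shACAT2 libraries. Its log2 fold change was 0.02 (SE 0.14, 95% interval −0.31 to 0.34, limma adjusted p = 0.954), and its sign turned with the scaling of the libraries and with which library was left out.

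By FPKM, the peroxisomal thiolases were the lowest of the 6 in control cells. In knockdown cells the range of SCP2 overlapped that of ACAT2. ACAA1 (chromosome 3, 38103129 to 38137242) had 2.48, 2.40 and 1.87 FPKM in shNC and 3.32, 2.73 and 2.08 FPKM in shACAT2 libraries, with overlap between the groups and a log2 fold change of 0.18 (SE 0.15, 95% interval −0.18 to 0.54, limma adjusted p = 0.515). Of its exon bases, 1403 (19.7%) overlap DLEC1 on the opposite strand. SCP2 (chromosome 1, 52927229 to 53051703) had 3.24, 4.03 and 4.30 FPKM in shNC and 5.71, 5.77 and 4.69 FPKM in shACAT2 libraries. All knockdown values were above all control values, the nearest being shACAT2-3 and shNC-3. Its log2 fold change was 0.40 (SE 0.12, 95% interval 0.11 to 0.69, limma adjusted p = 0.117, or 0.102 with the replicate block). The exons counted for SCP2 include 1275 bases of the pseudogene TUBBP10 on the same strand, which itself was at 0 throughout. Reads on these shared bases cannot be assigned to either gene, so that 0 does not show TUBBP10 to be silent.

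**Figure D2:**
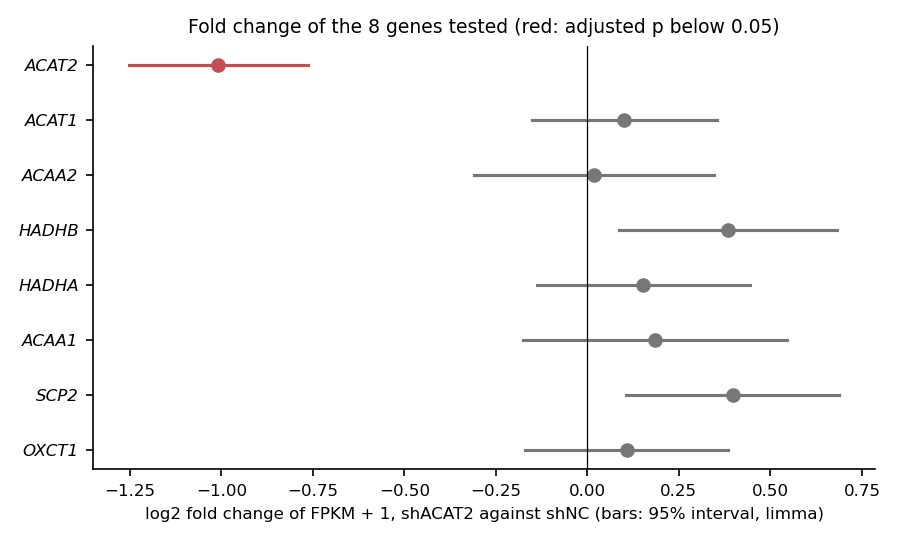
Fold change on the log2 scale of FPKM + 1 (horizontal axis) between shACAT2 and shNC for the 8 genes tested, with 95% intervals from limma. ACAT2 at −1.01 is the only one past an adjusted p of 0.05, and the intervals of HADHB and SCP2 lie above 0 before adjustment.

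The 2 ketone body enzymes differed in level, with OXCT1 abundant and BDH1 nearly absent. OXCT1 (chromosome 5, 41730065 to 41870519) had 28.5, 31.4 and 32.6 FPKM in shNC and 30.6, 37.4 and 32.1 FPKM in shACAT2 libraries. Only shACAT2-2 lay above all controls, and the log2 fold change was 0.11 (SE 0.12, 95% interval −0.17 to 0.38, limma adjusted p = 0.632). BDH1 (chromosome 3, 197509783 to 197573323) had 4, 0 and 0 fragments in shNC and 3, 1 and 8 fragments in shACAT2 libraries, at most 0.0585 FPKM. A count of 0 allows up to 3 fragments, which is 0.0203 FPKM in shNC-2 and 0.0191 FPKM in shNC-3, counting error alone. The 8 fragments are from shACAT2-3, where the rate on genes at 0 in all other libraries would give 7.09 fragments over the length of BDH1. No difference in BDH1 was detectable at this depth.

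By FPKM, the 9 genes stood in this order in control cells: HADHA, OXCT1, HADHB, ACAT1, ACAT2, ACAA2, SCP2, ACAA1 and BDH1, with no overlap between neighbours. In knockdown cells ACAT2 stood below ACAA2, in the sixth place, and its range of 5.46 to 6.19 FPKM overlapped that of SCP2, 4.69 to 5.77 FPKM. The other neighbours in that order still did not overlap. These levels are per summed exon length, which for genes with many annotated transcripts exceeds the length of any 1 mRNA: 5584 bases for ACAT1, whose principal transcript has 1761, against 4299 and 3180 bases for ACAT2. The order holds for this length only, and principal transcript lengths would change it.

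ACAT2 held a minor share of the FPKM of the 6 thiolases, and a smaller one after knockdown. Its share was 20.5%, 19.2% and 20.4% in shNC and 8.29%, 8.83% and 9.21% in shACAT2 libraries, a difference of −11.2 percentage points with no overlap (means 20.0% ± 0.704 and 8.77% ± 0.463, SD, n = 3; exact two-sided permutation test, p = 0.1, the smallest possible). The level of this share depended on how length was counted. Per principal transcript it was 12.1% and 5.02%, and as plain fragments 17.0% and 7.32%. With HADHA added to the sum, ACAT2 held 12.1% and 5.17%, and without SCP2 it held 21.3% and 9.54%.

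Of the shares held by the 5 others, that of HADHB differed most. HADHB made up 31.9% ± 0.641 of thiolase FPKM in shNC and 40.2% ± 2.00 in shACAT2 libraries, against 24.5% ± 0.330 and 25.3% ± 1.76 for ACAT1 (SD, n = 3). SCP2 went from 6.05% to 8.04%, ACAA1 from 3.49% to 4.01% and ACAA2 from 14.1% to 13.7%. The mitochondrial enzymes ACAT1, ACAA2 and HADHB together held 70.4% and 79.2%, and the peroxisomal enzymes ACAA1 and SCP2 9.54% and 12.0%. Since shares sum to a whole, the summed share of the 5 others is fixed by that of ACAT2. As a share of those 5 alone, HADHB went from 39.8% to 44.1%, ACAT1 from 30.6% to 27.7% and ACAA2 from 17.62% to 15.01%. For each of these genes the groups did not overlap (exact two-sided permutation test, p = 0.1, the smallest possible). In the same terms SCP2 went from 7.56% to 8.81% and ACAA1 from 4.37% to 4.40%, both with overlap between the groups.

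As sums of FPKM, the 5 thiolases other than ACAT2 came to 55.2, 49.4 and 49.8 in shNC and 68.5, 56.4 and 59.6 in shACAT2 libraries. The knockdown sums all lay above the controls, by 10.0 FPKM on average (exact two-sided permutation test, p = 0.1), of which HADHB made up 6.62 FPKM. Without shACAT2-1 the difference was 6.53 FPKM (exact two-sided permutation test, p = 0.2). The difference was 11.9 FPKM with upper-quartile scaling and 7.88 FPKM when scaled to total fragments on genes. ACAT2 itself was lower by 7.00 FPKM. These differences are per summed exon length and do not count mRNA molecules, so whether the others replaced the lost ACAT2 mRNA was not tested. All 6 thiolases together came to 69.4, 61.1 and 62.6 FPKM in shNC and 74.7, 61.8 and 65.7 FPKM in shACAT2 libraries, which overlap. Their mean difference was 3.04 FPKM (exact two-sided permutation test, p = 0.6), and it was −0.611 FPKM without shACAT2-1. Paired by replicate number, a pairing that the labels do not give, the knockdown library was higher in 3 of 3 pairs (exact two-sided sign-change test, p = 0.25, below which 3 pairs cannot go).

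**Figure D3:**
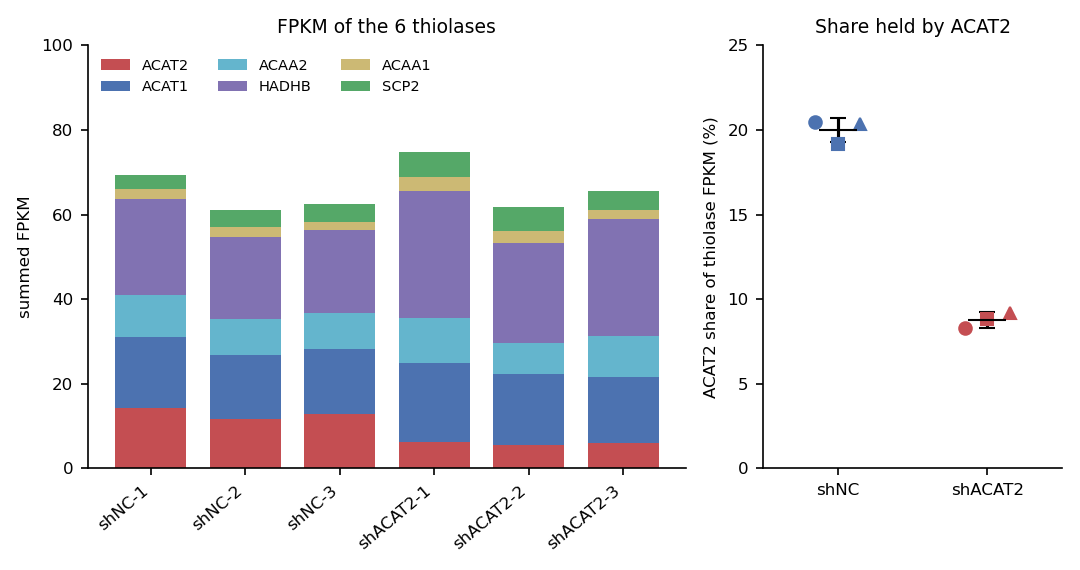
Left, the FPKM of the 6 thiolases stacked for each library (vertical axis, summed FPKM). Right, the share held by ACAT2 in percent, with mean and SD of 3 libraries: it is 19.2% to 20.5% in shNC and 8.29% to 9.21% in shACAT2, while the height of the stacks overlaps between the groups.

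Of 13 genes of ketone body metabolism and transport, 8 were tested and none was called by limma, nor did any have an unadjusted p under 0.05. Over all genes tested, 5.1% were called. The median log2 fold change of the 8 was 0.06, and they ranged from −0.03 to 0.15. SLC16A1 (MCT1, which carries lactate and ketone bodies across the plasma membrane) was the most abundant, at 48.1 ± 0.994 and 47.3 ± 0.301 FPKM (SD, n = 3), and the 2 groups overlapped. AACS, which activates acetoacetate in the cytosol, was at 2.85 ± 0.311 and 2.89 ± 0.222 FPKM. OXCT2 and SLC16A3 were under the filter, as was BDH1.

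Of 24 genes of mitochondrial fatty acid oxidation, 19 were tested and 1 was called, near the 5.1% of all genes tested. It was CPT1A, the carnitine palmitoyltransferase that controls entry of long-chain fatty acids into mitochondria. CPT1A had 23.5, 20.4 and 20.4 FPKM in shNC and 36.4, 33.4 and 33.9 FPKM in shACAT2 libraries. It rose by 0.67 on the log2 scale (SE 0.10, limma adjusted p = 0.0198). The call was lost when shACAT2-2 or any 1 of the controls was left out. The other tested genes ranged from −0.31 to 0.38, HADHB being the highest of them, and the median of the 19 was 0.02. CPT1B, CPT1C, SLC22A5, ACADL and ACAD11 were under the filter.

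Peroxisomal fatty acid oxidation had 15 of 19 genes tested and 1 called, near the 5.1% of all genes tested. It was PHYH, the phytanoyl-CoA hydroxylase that begins alpha-oxidation of branched chains. PHYH had 6.82, 6.13 and 5.20 FPKM in shNC and 15.4, 11.8 and 15.5 FPKM in shACAT2 libraries. The groups lay far apart, with a rise of 1.11 on the log2 scale (SE 0.14, limma adjusted p = 0.0107). The call was lost without shNC-2 or shNC-3. The median of the 15 was 0.12, and 10 of them were above 0, as were 52.3% of all genes tested. ABCD2, ACOX2, AMACR and ACOT4 were under the filter.

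Along the route from acetoacetyl-CoA to farnesyl groups and squalene, all 10 enzymes were tested and ACAT2 alone was called, where 5.1% of all genes were. The next enzyme, the cytosolic HMG-CoA synthase HMGCS1, had 22.0, 23.9 and 26.2 FPKM in shNC and 30.2, 37.0 and 34.7 FPKM in shACAT2 libraries. IDI1, the isopentenyl diphosphate isomerase, had 19.6, 20.9 and 23.1 FPKM and 27.3, 30.8 and 33.7 FPKM. Both separated the groups, with log2 fold changes of 0.48 and 0.51 (SE 0.12 for each) and limma adjusted p = 0.0703 and 0.0597, and were called with the replicate block (limma adjusted p = 0.0320 and 0.0230). Both were also called with limma-voom and without shACAT2-1, and IDI1 with upper-quartile scaling and where each library had to hold 10 fragments. Neither was called in the other settings counted for this list. The median of the 10 was 0.08. HMGCS1 and IDI1 were named after their values were seen.

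ACAT1 also ends the breakdown of isoleucine, and of 19 genes of branched-chain amino acid degradation 18 were tested. PPM1K, the phosphatase that activates the branched-chain ketoacid dehydrogenase, was the 1 gene called, near the 5.1% of all genes tested. It had 1.59, 2.06 and 1.82 FPKM in shNC and 2.90, 3.24 and 2.97 FPKM in shACAT2 libraries, and rose by 0.52 on the log2 scale (SE 0.11, limma adjusted p = 0.0409). This call is the least firm of those named: of the 6 settings that leave out 1 library, it was kept only without shACAT2-1. Of the 18, 10 were above 0 (52.3% of all genes tested were), with a median of 0.06, and BCKDHA was under the filter.

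**Figure D4:**
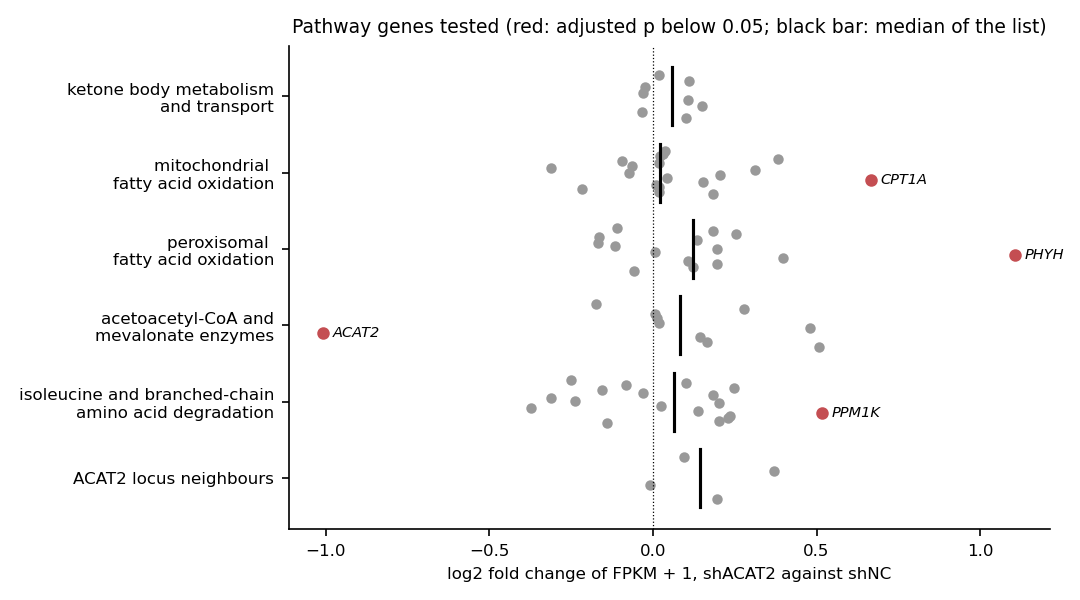
The log2 fold change (horizontal axis, shACAT2 against shNC) of each gene tested in 6 lists, with the median of each list as a black bar and genes at an adjusted p below 0.05 in red. The medians lie between 0.02 and 0.15, and the 4 genes called are CPT1A, PHYH and PPM1K above 0 and ACAT2 below.

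SOAT1 and SOAT2, the sterol O-acyltransferases that once carried the names ACAT1 and ACAT2, are unrelated to the thiolases. The level of SOAT1 was 7.87 ± 0.368 FPKM in the controls and 8.72 ± 1.28 FPKM after knockdown (SD, n = 3; limma adjusted p = 0.584), and SOAT2 was under the filter.

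The genes whose profile over the 6 libraries was most like that of ACAT2 were DACT1, XRCC6, DHTKD1, SLC16A14 and NUP210. Likeness was the root mean square difference of log2(FPKM + 1), each gene centred on its mean, and it ran from 0.06 for DACT1 to 0.08 for NUP210. XRCC6, the Ku70 subunit of DNA end joining, had 236, 202 and 201 FPKM in shNC and 118, 93.9 and 103 FPKM in shACAT2 libraries. DHTKD1, a mitochondrial dehydrogenase of lysine breakdown, had 22.3, 18.6 and 19.4 FPKM and 9.69, 9.95 and 9.48 FPKM. NUP210, a nuclear pore membrane protein, had 48.4, 42.7 and 43.9 FPKM and 19.7, 20.5 and 21.7 FPKM. DACT1, a regulator of Wnt signalling, and SLC16A14, of the monocarboxylate transporter family, were lower in level, at 2.88 ± 0.211 and 1.95 ± 0.165 FPKM in shNC and 0.967 ± 0.104 and 0.593 ± 0.0758 FPKM in shACAT2 libraries (SD, n = 3). As in ACAT2, shNC-1 was the highest of the controls in all 5 genes. The 5 were chosen for likeness to ACAT2 over these same libraries, so this shared order is not a separate result.

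**Figure D5:**
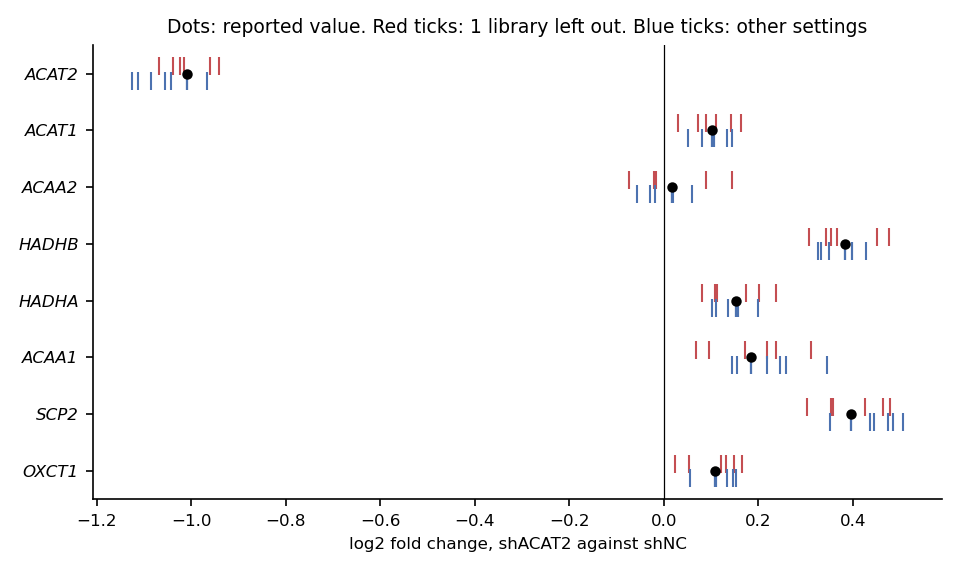
The log2 fold change (horizontal axis) of the 8 genes tested as reported (black dots), with 1 library left out (red) and under the other settings (blue). ACAT2 stays between −1.13 and −0.94, HADHB between 0.31 and 0.48 and SCP2 between 0.30 and 0.51, while ACAA2 falls on both sides of 0.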

How the data were processed

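RNA-seq libraries of HGC-27 cells, 3 shNC and 3 shACAT2, were grouped and numbered by their labels. The authors deposited FPKM values for 58735 genes, and 0 columns of per-sample values went unused. The submitters' processing notes list hg38, HISAT2 2.0.5, featureCounts 1.5.0-p3 and DESeq2 1.20.0, and the strand setting is not given in the sources used here. Gene lengths and coordinates of all 58735 genes equal GENCODE release 29. Each FPKM value times length, divided by a step fitted for its library, is a whole number of fragments (100% of values above 0 within 0.001), 14086416 to 16067486 per library. The authors' FPKM denominators differ from these totals. Depth limits the precision for genes with few fragments, and floors of 3 fragments cover counting error only.

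limma (version 3.58.1, R 4.3.3, with trend) was fitted on log2(FPKM + 1), pseudocount 1, to the 13832 genes whose mean reached 1 FPKM in shNC or shACAT2, and tested on simulated data. Shares, sums and ratios were compared with exact two-sided permutation tests (Python 3.11.15, scipy 1.17.1). The design provided for FPKM or counts, and the FPKM form was used. Same-numbered libraries deviated together from their group means (correlations 0.445, 0.126 and 0.171, all above 0.1). Only number 1 stood apart from the other combinations. Library shACAT2-2 correlated more with shNC-3 (0.141) than with shNC-2, so these values do not settle whether numbers 2 and 3 pair the libraries. The reported tests have no block, and the fit with the replicate block is given where it changes a call. The labels do not give a pairing by number, and shNC-2 correlated more with shACAT2-3 (0.198) than with its own number. Calls that appear only with the block rest on this unsettled pairing.

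The members, the lists and the rule for named genes were chosen with earlier results of these data known. The rule names all 9 members, the genes called and those under the filter in each list, SOAT1, SOAT2, the ACAT2 neighbours and the 5 genes most like ACAT2. Some list members are not reported here by name. The alternatives were other scalings, filters and pseudocount, limma-voom on recovered fragments, the replicate block, averaging shNC-2 with shNC-3, and each library left out. The principal-transcript length and the removal of shNC-2 with shACAT2-3 were chosen after seeing the data.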

Additional observations from a re-analysis of the deposited data

How the results depend on the processing

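The log2 fold change of ACAT2 kept its direction under all 15 alternatives and its call under 14, the exception being −1.01 at a limma adjusted p of 0.0512 without shNC-3. With 1 library left out it ran from −1.07 to −0.94. No other member was called except HADHB, the 1 gene called with the replicate block, and no other member reversed except ACAA2, with a log2 fold change of −0.030 when scaled to total fragments, −0.019 with shNC-2 and shNC-3 averaged, −0.074 to 0.14 with 1 library left out and −0.057 without shNC-2 and shACAT2-3. The sum of the 6 thiolases ran from −0.611 to 5.82 FPKM with 1 library left out, reversing without shACAT2-1. The causes of these changes were not tested.

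The genes called per list moved as follows. The replicate block gave 2 in mitochondrial oxidation, 3 in the mevalonate list and 1 neighbour (TCP1), and it changed no other list's count. The shNC-2 and shNC-3 average gave 0 in the mitochondrial, peroxisomal and branched-chain lists. The mevalonate list had 2 with upper-quartile scaling, 2 where each library had to hold 10 fragments and 3 with limma-voom. The branched-chain list had 0 when scaled to total fragments and 0 without a filter. With 1 library left out, the mitochondrial, peroxisomal and branched-chain lists had 0 to 1 and the mevalonate list 0 to 3, with 3 without shACAT2-1 and 0 without shNC-3.

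Over all genes, 706 calls became 1727 with the block, 83 with the average, 209 without a filter and 63 to 862 with 1 library left out (lowest without shNC-3). They became 133 without shNC-2 and shACAT2-3. Higher calls were 64.6% of 706, 54.8% of 885 when scaled to total fragments, and 71.3% of 661 with upper-quartile scaling. In the other fits the calls in both directions numbered 1034 with at least 10 fragments, 1016 with limma-voom and 680 at a pseudocount of 0.1. Exact sign-change tests of the 3 pairs, used for the shares, sums and ratios, cannot go below p = 0.25.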
